A study of Mus musculus with 20 samples.

Results

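WT plantaris tendon after 14 days of a growth stimulus was compared with resting WT plantaris tendon across all genes. The comparison used 8 of the 20 RNA-seq libraries of the study, chosen by their titles: 4 WT day 14 libraries and 4 WT day 0 libraries. The plantaris tendon runs along the back of the hind limb to the foot. The study followed growth of this tendon in mice in which Igf1r, the gene of the IGF1 receptor, can be deleted in tenocytes, and the WT mice are the controls without that deletion. Both groups have the genotype ScxCreERT2-/- IGF1Rflox/flox, which carries flox sites at Igf1r and no copy of the tamoxifen-inducible Cre driven by Scx. WT day 14 mice had the growth stimulus, coded OL in the titles, and tamoxifen. WT day 0 mice, coded NOC, had neither. Time, stimulus and tamoxifen therefore cannot be told apart in any difference given here. The labels give no age, and nothing in them ties a replicate to an animal of its own, so the p-values cover library-to-library spread that may be only technical. In whole tissue, fewer cells of a type and less RNA per cell cannot be told apart either.

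Tendon is built by tenocytes, fibroblasts that lie in rows between collagen fibrils. They secrete procollagen, which is hydroxylated and folded in the endoplasmic reticulum, trimmed outside the cell, assembled into fibrils with small proteoglycans and glycoproteins, and crosslinked by lysyl oxidases. Type I collagen is the main collagen of mature tendon, and type III collagen is richer in young or healing tendon. A tendon that bears more load grows by cell division and by laying down new matrix. Scleraxis (Scx) is a transcription factor of the tendon lineage, and tenomodulin (Tnmd) is a membrane protein of mature tenocytes.

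Counts per library ranged from 32.3 to 58.9 M, and 18918 of the 24885 genes in the file were tested. Levels are in CPM, counts per M scaled by library size and TMM factors, and are listed in the order of the replicate numbers. Changes are log2 differences of day 14 minus day 0, with their standard error (SE) where one follows. A gene is said to have risen or fallen where edgeR's quasi-likelihood test gave a Benjamini-Hochberg adjusted p below 0.05 over all tested genes. By that rule 10268 genes differed, 54.3% of those tested. They comprised 5306 that rose (28.0%) and 4962 that fell (26.2%). These shares are the background for every count below of list members that rose or fell at day 14 against day 0. The change was at least 2-fold for 2006 of the genes that rose and 2296 of those that fell, and at least 4-fold for 748 and 989 of them. The groups did not overlap for 8727 genes, 46.1% of those tested, with all day 14 libraries higher for 23.2% and lower for 23.0%. The median log2 change over all tested genes was 0.02. The first principal component of the 8 libraries held 73.1% of the variance and separated the groups. Day 14 replicate 4 stood apart from the other libraries on the second component and day 14 replicate 1 on the third.

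**Figure D1:**
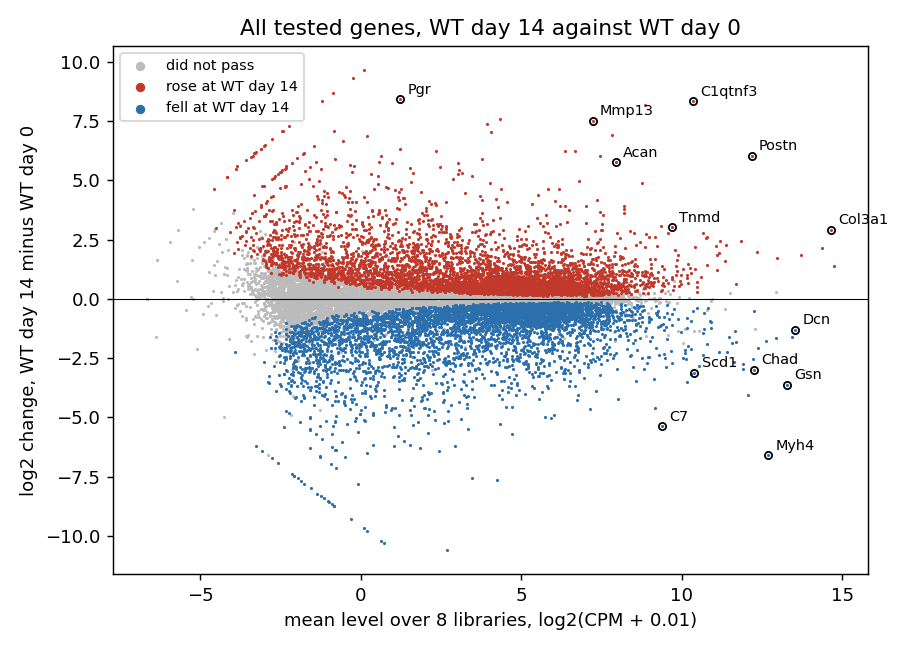
Change against level for the 18918 tested genes. The x axis is the log2 of the mean CPM over the 8 libraries with a small constant added and the y axis the log2 change of WT day 14 minus WT day 0; red points rose, blue points fell and grey points did not pass, and the named points are genes described in the text. The cloud is centred near 0, with 748 genes at least 4-fold higher and 989 at least 4-fold lower among those that passed.

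Markers of other cell types moved with the groups. Skeletal muscle fibre markers held 1.97%, 0.431%, 0.693% and 3.06% of counts in the day 14 libraries, against 6.42%, 3.90%, 8.35% and 8.90% in the day 0 libraries. All day 14 shares were lower, and replicates 1 and 4 held the most within day 14. Adipocyte markers held 0.181% to 0.307% at day 14 and 0.727% to 1.11% at day 0, and macrophage markers 0.883% to 1.09% at day 14 and 0.499% to 0.664% at day 0. Each of these differences had a two-sided exact permutation p of 0.0286, the smallest that 4 against 4 libraries allow. The test was run on all 73 gene lists without adjustment, and many other lists reached the same p. The part of these cell types in the changes of single genes was not tested. Without day 14 replicates 1 and 4, a setting chosen after the data were seen, 5083 genes rose and 4681 fell. All 4 genes of the sex-chromosome list had intervals inside 1.5-fold.

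**Figure D2:**
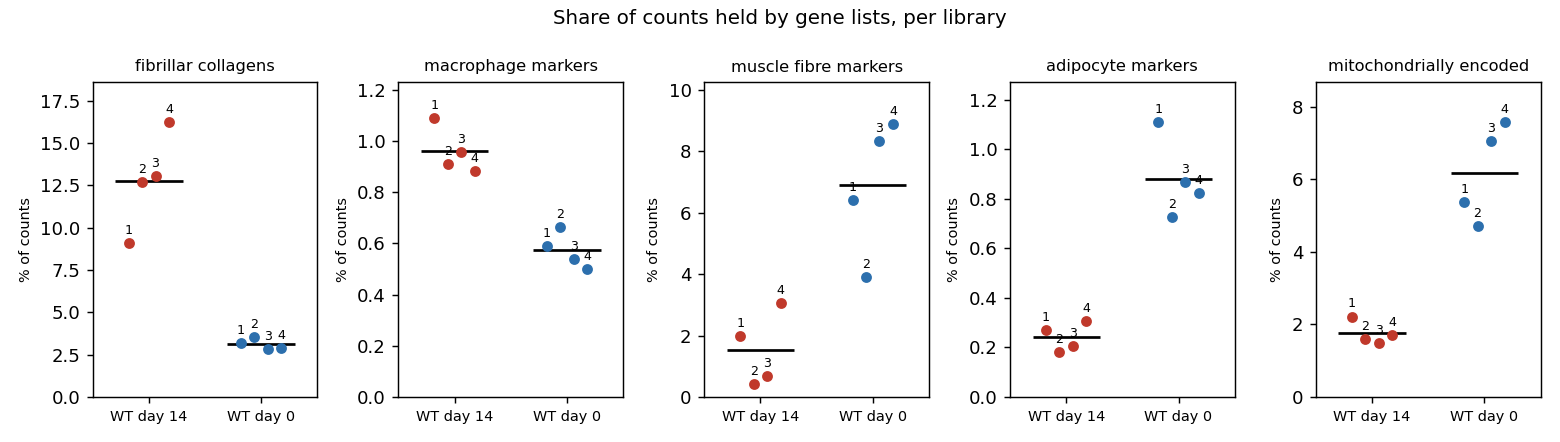
Share of all counts held by 5 gene lists in each library. Each panel is 1 list, the y axis is percent of counts from 0, points are libraries labelled by replicate number, WT day 14 left of WT day 0, and bars mark the group means. Fibrillar collagens and macrophage markers were higher in every day 14 library, and muscle fibre markers, adipocyte markers and mitochondrially encoded genes lower.

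C1qtnf3 (ENSMUSG00000058914, chr15:10952332-10980150 in GRCm38), a secreted protein related to C1q, had 2639, 3914, 2357 and 1586 CPM at day 14, against 8.53, 8.10, 8.87 and 6.84 CPM at day 0. It rose by 8.34 ± 0.40 as a log2 change (SE; 4 libraries in each group). Cthrc1, a secreted glycoprotein of remodelling tissue, had 1010.3, 1243, 861 and 591 CPM at day 14 and 2.38 to 3.62 CPM at day 0. Every day 14 library stood far above every day 0 library for C1qtnf3 and Cthrc1. Lrrc15, a membrane protein of activated fibroblasts, averaged 449 ± 146 CPM at day 14 and 3.65 ± 0.694 CPM at day 0 (SD, n = 4 each, as for all values written with ± CPM). Periostin (Postn), a matrix protein that binds integrins, averaged 9163 ± 2687 CPM at day 14 and 139 ± 37.9 CPM at day 0. Fibrillin 2 (Fbn2), the metalloproteinase Adam12 and the tenascin Tnn rose by 6.26, 6.25 and 6.01. Klk1, a kallikrein protease, averaged 40.7 CPM at day 14 and 0.204 CPM at day 0, and Prss35, a secreted relative of serine proteases, averaged 32.9 CPM at day 14 and 0.244 CPM at day 0. Cxcl5, a chemokine that attracts neutrophils, rose by 5.57. The 15 genes with the largest rises also include the muscle genes Igfn1, Tnni1 and Tnnt2. Igfn1, an immunoglobulin-domain protein, had 32.7, 5.64, 13.8 and 69.6 CPM at day 14 and 0.0488 to 0.292 CPM at day 0.

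Of 37 activated fibroblast genes 32 rose and 3 fell, with a median change of 1.77. C1qtnf6, a relative of C1qtnf3, rose by 3.78, and S100a4, a small calcium-binding protein, fell by 0.54 with overlapping groups. Of 38 contractile and cytoskeletal genes of such cells 29 rose and 4 fell, with a median of 0.82. Acta2, the smooth muscle actin of myofibroblasts, had 462, 437, 399 and 293 CPM at day 14, against 81.9, 87.1, 90.6 and 82.8 CPM at day 0, with no overlap. Fhl2, a LIM domain protein, rose by 2.96 and the actin crosslinker Actn1 by 1.54. Tpm1, a tropomyosin that muscle fibres also make, fell by 1.87. Without day 14 replicate 4, 7 genes of the contractile list fell.

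**Figure D3:**
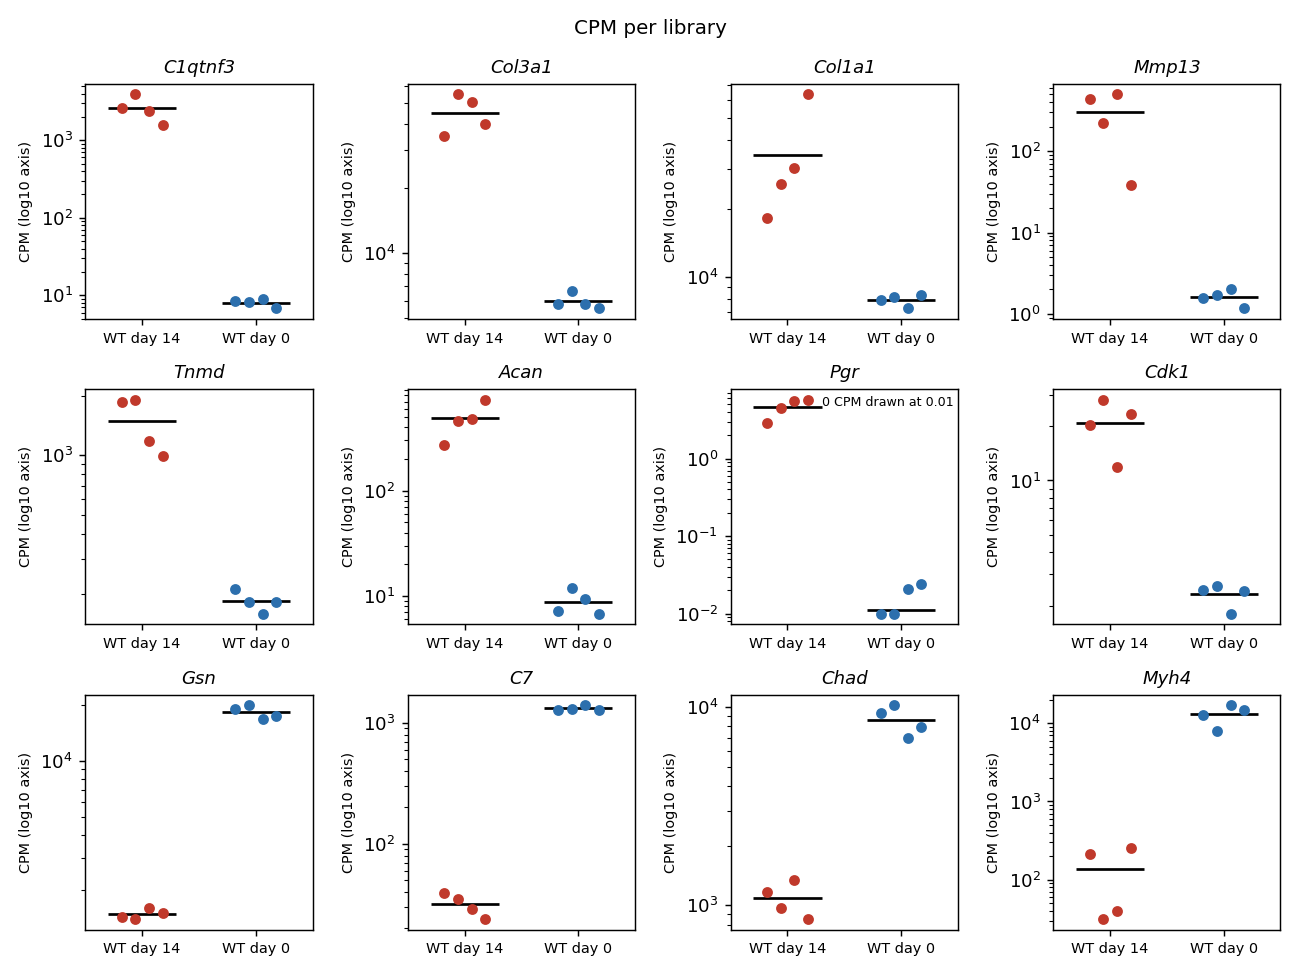
CPM of 12 genes in every library. The y axis is CPM on a log10 scale, points are libraries, WT day 14 left of WT day 0, bars mark the group means, and a CPM of 0 is drawn at the foot of the Pgr panel. The groups did not overlap in any of the 12 genes, and day 14 replicate 4 was the lowest day 14 library for Mmp13 and the highest for Col1a1.

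Most collagen genes and most genes that process collagen rose. Of 11 fibrillar collagen genes 9 rose and 0 fell, with a median change of 2.13. Col3a1, of type III collagen, had 34869.7, 54687, 50446 and 39896 CPM at day 14, against 5821, 6696, 5799.5 and 5544 CPM at day 0, and rose by 2.91 ± 0.14 (SE). Col1a1, of type I collagen, had 18206, 25648, 30345 and 63886 CPM at day 14 and 7257 to 8268 CPM at day 0. All day 14 libraries were above all day 0 libraries in Col3a1 and Col1a1, and replicate 4 was the highest day 14 library in Col1a1. Fibrillar collagens together held 9.07%, 12.7%, 13.1% and 16.2% of counts at day 14, against 2.84% to 3.54% at day 0 (two-sided exact permutation p = 0.0286). Per length, in TPM, the ratio of Col3a1 to Col1a1 was 1.28, 1.43, 1.11 and 0.418 in the day 14 libraries, against 0.495, 0.549, 0.534 and 0.448 in the day 0 libraries. Day 14 replicate 4 lay below every day 0 library in this ratio and the other day 14 libraries above every one. The group means of 1.06 ± 0.446 at day 14 and 0.507 ± 0.0451 at day 0 did not pass (SD, n = 4 each; two-sided exact permutation p = 0.143). Col5a1, Col5a2 and Col11a1, whose products regulate fibril assembly, rose by 2.45, 2.44 and 2.79.

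Among 24 other collagens 13 rose and 6 fell, with a median of 1.30. Col8a1, a short-chain collagen, averaged 842 ± 208 CPM at day 14 and 28.7 ± 3.73 CPM at day 0. The fibril-associated Col12a1 and Col14a1 rose by 2.59 and 2.18, and Col6a3, of the fine filaments around cells, by 2.60. Col20a1 and Col13a1 fell by 1.35 and 0.95, and 3 of these collagens fell without day 0 replicate 4. Of 33 collagen processing genes 26 rose and 4 fell, with a median of 1.17. P4ha3, a subunit of prolyl hydroxylase, had 128, 191, 154 and 141 CPM at day 14 and 8.99 to 11.1 CPM at day 0, and rose by 3.93 ± 0.12 (SE). The collagen chaperone Serpinh1 rose by 1.86 and P3h1, which hydroxylates proline, by 1.89. The genes that fell were Pcolce2, an enhancer of procollagen cleavage, by 2.55, the lysyl oxidase Loxl4 by 1.51, the prolyl hydroxylase P3h2 by 1.38 and the channel gene Tmem38b by 0.98.

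Other matrix genes moved in both directions. Of 18 small leucine-rich proteoglycans, many of which bind collagen fibrils, 7 rose and 6 fell, with a median of 0.13. Biglycan (Bgn) had 6415, 8534, 9108 and 9296 CPM at day 14 and 1867 to 2474 CPM at day 0. Decorin (Dcn) had 8463, 7303, 6436 and 5183 CPM at day 14, against 17799, 19941, 14644 and 14631 CPM at day 0. Chondroadherin (Chad) averaged 1085 ± 219 CPM at day 14 and 8633 ± 1436 CPM at day 0. Bgn was higher in every day 14 library, and Dcn and Chad were lower in every one. Lumican (Lum) and asporin (Aspn) rose by 2.76 and 2.21, and fibromodulin (Fmod) fell by 0.49 with overlapping groups. The fall of Fmod did not pass without day 14 replicate 1, day 14 replicate 2 or day 0 replicate 2 (edgeR adjusted p = 0.0819, 0.0819 and 0.0563), nor with the 8 libraries fitted alone (edgeR adjusted p = 0.0656). Of 58 matrix glycoproteins 30 rose and 13 fell, with a median of 0.57. Sparc, a collagen-binding glycoprotein, averaged 21189 ± 1141 CPM at day 14 and 5928 ± 704 CPM at day 0. Fibronectin (Fn1) rose by 1.73 and tenascin C (Tnc) by 3.07. Comp, a fibril-linking protein of cartilage and tendon, fell by 1.37, the lubricin gene Prg4 by 1.61 and tenascin X (Tnxb) by 2.32.

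Of 17 elastic fibre genes 13 rose and 3 fell, with a median of 1.25. The microfibril proteins Mfap4 and Mfap2 rose by 3.64 and 3.20. Fibulin 1 (Fbln1) had 83.5, 76.3, 94.8 and 139.8 CPM at day 14, against 1095, 1188, 869.7 and 932 CPM at day 0, and fell by 3.37 ± 0.28 (SE). Of 24 basement membrane genes 9 rose and 9 fell. Among the laminin chains Lamb1 rose by 2.92, and Lamb2 and Lamc3 fell by 1.14 and 2.72. Enzymes that make glycosaminoglycan chains had 22 of 40 members up and 11 down, with Csgalnact1, of chondroitin sulfate synthesis, at 3.07. Of 22 hyaluronan genes 8 rose and 8 fell, with Tnfaip6, which binds hyaluronan, at 2.85 and the receptor Lyve1 at -1.51.

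Of 46 metalloproteinases and inhibitors 31 rose and 8 fell, with a median of 0.90. Mmp13, a collagenase, had 435, 222, 498 and 38.7 CPM at day 14, against 1.56, 1.69, 2.02 and 1.18 CPM at day 0. The lowest day 14 library, replicate 4, was still above every day 0 library of Mmp13, and the rise was 7.52 ± 0.84 (SE). Mmp14, a membrane-bound collagenase, had 634, 881, 1029.8 and 922 CPM at day 14 and 121 to 153 CPM at day 0. Mmp2, a gelatinase, rose by 1.93 and Mmp19 by 2.77. Among the inhibitors Timp1 averaged 333 ± 42.6 CPM at day 14 and 36.8 ± 19.1 CPM at day 0, while Timp3 and Timp4 fell by 2.21 and 3.63. In the plasmin and serine protease list 7 of 20 rose and 7 fell. Fap, a surface peptidase of activated fibroblasts, rose by 2.28. Ctsk, the collagen-cutting cathepsin K, had 1157, 1003, 1041 and 717 CPM at day 14 and 155 to 181 CPM at day 0.

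Of 22 tenogenic genes 8 rose and 8 fell, with a median of 0.03, beside 0.02 for all tested genes. Tnmd had 1866, 1905, 1175 and 995 CPM at day 14, against 212, 182, 158 and 181 CPM at day 0, and rose by 3.02 ± 0.29 (SE). Scx had 121, 142, 125 and 70.3 CPM at day 14, against 40.8, 45.8, 35.5 and 31.4 CPM at day 0, and rose by 1.57 ± 0.28 (SE). Neither Tnmd nor Scx overlapped between groups, and replicate 4 was the lowest day 14 library in both. Keratocan (Kera) rose by 1.41. Tppp3, a tubulin-binding protein of tendon sheath cells, fell by 1.19 and Cilp2 by 1.30. Mkx and Thbs4, both known in tendon, were picked with their values in view. Mkx, a tendon homeobox factor, had 49.8, 42.8, 37.7 and 57.8 CPM at day 14 and 45.96 to 59.1 CPM at day 0. Thbs4, a thrombospondin, averaged 8576 ± 1463 CPM at day 14 and 6934 ± 735 CPM at day 0. Neither passed (edgeR adjusted p = 0.402 for Mkx and 0.0580 for Thbs4). Thbs4 passed, as higher at day 14, without day 14 replicate 1, day 14 replicate 2 or day 0 replicate 2 (edgeR adjusted p = 0.0254, 0.0480 and 0.0355). Mkx passed, as lower at day 14, without day 14 replicates 1 and 4 (edgeR adjusted p = 0.0472).

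Cartilage genes had 11 of 28 members up and 8 down, with a median of 0.22. Aggrecan (Acan), the large proteoglycan of cartilage, had 274, 458, 478 and 728 CPM at day 14, against 7.18, 11.9, 9.39 and 6.81 CPM at day 0. Col2a1, of cartilage collagen, averaged 44.2 ± 26.8 CPM at day 14 and 2.53 ± 0.549 CPM at day 0. Matn3, a matrilin, rose by 5.20 and Sox9, the cartilage transcription factor, by 1.96. All day 14 libraries exceeded all day 0 libraries in Acan, Col2a1, Matn3 and Sox9. Cytl1, a secreted protein of cartilage, fell by 4.13, and Chad, Comp and Prg4, named above as lower, also belong to this list. Together the cartilage genes held 0.656% ± 0.108% of counts at day 14 and 1.82% ± 0.338% at day 0 (SD, n = 4 each, two-sided exact permutation p = 0.0286). Much of this share and of its fall belongs to Chad, whose CPM are given above, while more members of the list rose than fell. Bone formation and mineralization genes had 10 of 27 members down (37.0%) and 6 up (22.2%), beside 26.2% and 28.0% over all tested genes. Mgp and Enpp1, which restrain mineralization, rose by 2.21 and 1.83, and Tnfsf11, the osteoclast-activating RANKL, by 3.84. Smpd3, a sphingomyelinase of bone mineralization, fell by 4.09 and the homeobox gene Dlx3 by 4.11.

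Among genes that fell, Gsn, the actin-cutting gelsolin, had the largest difference in mean CPM. It had 1433, 1399, 1604 and 1506 CPM at day 14, against 19076, 19928, 16895 and 17504 CPM at day 0, and fell by 3.63 ± 0.26 (SE). C7, a terminal complement component, had 39.3, 34.96, 28.8 and 23.8 CPM at day 14, against 1286, 1297, 1395 and 1285 CPM at day 0. Neither Gsn nor C7 came near overlapping between the groups. Myocilin (Myoc), a secreted glycoprotein, averaged 496 ± 110.4 CPM at day 14 and 8123 ± 1435 CPM at day 0. Inmt, a methyltransferase, fell by 4.89, and Ostn, the muscle-secreted musclin, fell by 5.72. Alb, the serum albumin gene, averaged 0.209 CPM at day 14 and 15.2 CPM at day 0. Complement genes had 11 of 23 members up and 8 down. Cfi, the protease that inactivates C3b, rose by 4.63, while the regulator Clu fell by 2.26 and C3 by 1.39. Of 29 genes of the paratenon, the sheath around tendon, and of progenitor fibroblasts 15 fell and 6 rose, with a median of -0.48. Wif1, a secreted Wnt inhibitor, Scara5, a scavenger receptor, and Dpp4, a surface peptidase, fell by 2.33, 1.89 and 1.45, and Mfap5 rose by 2.29.

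TGF-beta genes, of a pathway that drives matrix production, had 10 of 29 members up (34.5%) and 8 down (27.6%), shares near the 28.0% and 26.2% over all tested genes. The coreceptor Tgfbr3 fell by 1.48 and the transducer Smad3 by 0.65. BMP and GDF genes, of ligands that act in cartilage, bone and tendon, had 19 of 36 members down and 9 up, with a median of -0.67. Bmp2 had 7.26, 7.20, 11.003 and 9.52 CPM at day 14, against 83.99, 106, 66.5 and 74.1 CPM at day 0, with no overlap. Bmp4 fell by 2.15 and Smad6, an inhibitor that BMP signals induce, by 1.94. FGF ligands, receptors and feedback genes had 14 of 27 members down and 1 up. Fgf9 averaged 5.01 ± 0.663 CPM at day 14 and 34.3 ± 6.72 CPM at day 0, and the gene that rose was Fgf21, at 0.460 CPM at day 14 and 0.0490 CPM at day 0. Of 15 Hedgehog pathway genes 9 fell and 1 rose, with a median of -1.01. The receptor Ptch1, itself a target of the pathway, had 8.91, 10.1, 10.6 and 14.5 CPM at day 14 and 21.8 to 32.6 CPM at day 0, and the coreceptors Cdon, Boc and Gas1 fell by 1.28, 1.25 and 1.37.

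Wnt ligands and secreted inhibitors had 6 of 27 members up (22.2%) and 9 down (33.3%), beside 28.0% and 26.2% over all tested genes. Wnt16 had 12.7, 25.03, 21.2 and 6.34 CPM at day 14, against 0.306, 0.374, 0.354 and 0.433 CPM at day 0. Wnt16 was higher in every day 14 library, with replicate 4 the lowest of them. Rspo2, which strengthens Wnt signalling, rose by 2.93 and Sfrp1, which binds Wnts, by 2.42, while Wnt4 and Wnt11 fell by 3.99 and 1.66. Among Wnt receptors and targets 10 of 31 rose and 14 fell. Axin2, a common target of beta-catenin, had 5.86, 8.01, 10.2 and 8.94 CPM at day 14 and 23.7 to 26.5 CPM at day 0, and the receptor Fzd9 fell by 3.28. Of 22 IGF signalling genes 11 rose and 9 fell. Igf1 had 854, 919, 825 and 582 CPM at day 14, against 250.3, 247, 261 and 232 CPM at day 0, with no overlap. Igf1r, the floxed gene, which no Cre acts on here, had 44.6, 40.5, 47.5 and 48.7 CPM at day 14 and 56.3 to 70.9 CPM at day 0, a fall of 0.47 ± 0.08 (SE). Igfbp5 and Igfbp6, which bind IGF, fell by 1.21 and 1.18, and Pappa, a protease that cuts IGF binding proteins, rose by 3.14. Among nerve growth and axon guidance genes Mdk, the growth factor midkine, rose by 4.23 and Slit2 by 3.01, while netrin 1 (Ntn1) averaged 68.2 ± 14.6 CPM at day 14 and 332 ± 37.7 CPM at day 0.

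Oestrogen-responsive genes were counted separately, because tamoxifen, a ligand of oestrogen receptors, was given to the day 14 mice and not to the day 0 mice. Of 17 such genes 10 rose and 5 fell, with a median of 1.01. Pgr (ENSMUSG00000031870, chr9:8899833-8968611 in GRCm38), the progesterone receptor, had 2.92, 4.51, 5.49 and 5.74 CPM at day 14, against 0, 0, 0.0208 and 0.0241 CPM at day 0. Its raw counts were 822 at day 14 and 2 at day 0, which after scaling is a 426-fold ratio with a 95% counting interval of 118 to 3523. Greb1, which oestrogen receptors induce, had 6.56, 12.01, 12.9 and 31.8 CPM at day 14, against 0.428, 0.374, 0.500 and 0.337 CPM at day 0. Every day 14 library was above every day 0 library in Pgr and Greb1. At day 7, also with tamoxifen, Pgr averaged 3.10 ± 0.518 CPM and Greb1 8.62 ± 1.97 CPM (n = 4). The difference between day 14 and day 7 did not pass in either gene (edgeR adjusted p = 0.271 for Pgr and 0.0886 for Greb1). Esr1, the oestrogen receptor alpha gene, averaged 17.7 ± 3.56 CPM at day 14 and 32.3 ± 1.75 CPM at day 0. The part of tamoxifen in these changes was not tested.

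Cell cycle genes stood higher at day 14. Of 60 mitosis and spindle genes 58 rose and 2 fell, with a median of 2.29. Cdk1, the kinase that starts mitosis, had 20.5, 28.1, 11.8 and 23.5 CPM at day 14, against 2.45, 2.59, 1.81 and 2.43 CPM at day 0, with no overlap. The genes that fell were the securin Pttg1, by 0.98, and the phosphatase Cdc25b, by 0.45. Of 50 genes of DNA replication and nucleotide synthesis 35 rose and 2 fell, with a median of 0.61, and Rrm2, which makes deoxynucleotides, rose by 2.39. Of 20 genes of D cyclins, their kinases and CDK inhibitors 11 rose and 4 fell. Cdkn2a codes for the CDK inhibitor p16 and for p19Arf, which counts per gene do not separate. Cdkn2a had 2.37, 4.87, 2.30 and 1.38 CPM at day 14 and 0.125 to 0.361 CPM at day 0. Its neighbour Cdkn2b rose by 2.37.

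Promoters were searched for short motifs on both strands of the 300 bases from 250 before to 50 after the start, in the 10471 tested genes with exactly 1 promoter in RefSeq (GRCm38.p6). The CHR element, TTTGAA, known from mitosis genes, stood in 28 of 45 mitosis promoters (62.2%) and in 12.8% of all promoters searched. The E2F motifs, TTTCCCGC or TTTGGCGC, known from replication genes, stood in 11 of 33 replication promoters (33.3%) and in 2.83% of all. The AP-1 motif, TGANTCA, stood in 5.57% of the promoters of genes that rose, 5.35% of those of genes that fell and 5.52% of all. The stretches below, each 60 bases long and upstream of the start, run 5′ to 3′ on the gene's strand with the motif in capitals. They show where the motif lies in genes with small p among those that rose, from the mitosis list, the replication list and the largest rises.
Cdk1 (chr10:69352913-69352972, minus strand, CHR): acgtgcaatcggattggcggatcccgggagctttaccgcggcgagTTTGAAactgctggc
Cdc20 (chr4:118437344-118437403, minus strand, CHR): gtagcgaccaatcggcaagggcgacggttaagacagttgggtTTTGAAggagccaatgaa
Top2a (chr11:99024190-99024249, minus strand, CHR): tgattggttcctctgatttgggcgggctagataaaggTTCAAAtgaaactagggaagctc
Gins3 (chr8:95633492-95633551, plus strand, E2F): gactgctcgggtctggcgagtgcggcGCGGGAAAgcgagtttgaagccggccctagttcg
Cdc6 (chr11:98907987-98908046, plus strand, E2F): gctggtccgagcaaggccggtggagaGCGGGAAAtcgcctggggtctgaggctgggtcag
Lrrc15 (chr16:30283275-30283334, minus strand, AP-1): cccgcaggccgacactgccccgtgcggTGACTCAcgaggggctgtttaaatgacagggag
Mmp13 (chr9:7272452-7272511, plus strand, AP-1): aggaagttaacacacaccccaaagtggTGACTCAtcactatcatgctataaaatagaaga

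The CHR element ends 10, 13 and 18 bases before the start in Cdk1, Cdc20 and Top2a, and Top2a carries it on the other strand, as TTCAAA. Gins3 and Cdc6 carry an E2F motif on the other strand, as GCGGGAAA. Capitals mark only the motif named beside each gene, and the Gins3 stretch also holds the CHR letters, in lower case. Lrrc15 and Mmp13 hold the same AP-1 string, TGACTCA. A match is a run of letters in this window and says nothing of binding. In level, Cdc20 rose by 2.29, Top2a by 2.64, Gins3 by 0.82 and Cdc6 by 0.85.

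Of 30 imprinted growth genes, expressed from a single parental copy, 15 rose and 7 fell, with a median of 0.498. Meg3, a noncoding RNA of the Dlk1-Dio3 cluster, had 580.0, 865, 719.9 and 626 CPM at day 14, against 149, 136, 125 and 120.0 CPM at day 0. Rian, Mirg and Rtl1 of the same cluster rose by 2.89, 3.17 and 3.96. The groups did not overlap in Meg3, Rian, Mirg or Rtl1. Rtl1 has an antisense transcript, and the use of strand in the counting is not given in the sources used here, so their reads cannot be told apart. H19, the noncoding RNA next to Igf2, averaged 557 ± 189 CPM at day 14 and 37.3 ± 12.96 CPM at day 0. Asb4, Nnat and Slc38a4 fell by 3.60, 2.71 and 2.52.

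Of 50 secretory pathway genes 39 rose and 1 fell, with a median of 0.73. Kdelr3, which returns proteins to the endoplasmic reticulum, had 227, 248, 229 and 179 CPM at day 14 and 52.3 to 65.7 CPM at day 0. The translocon gene Sec61a1 rose by 1.05, and the gene that fell was Sar1b, of transport vesicles, by 1.38. Cytosolic ribosomal protein genes had 34 of 81 members up and 1 down, with a median of 0.23, and 51 had intervals inside 1.5-fold. Their counts are uncertain where reads also match pseudogenes. Ribosome biogenesis genes had 22 of 43 members up and 2 down, and with a score of muscle markers as a covariate 13 rose and 1 fell. The integrated stress response list had 19 of 35 members up and 4 down, with Pycr1 and Aldh18a1, of proline synthesis, at 2.34 and 1.73.

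Genes of energy metabolism mostly fell. Of 78 nuclear genes of oxidative phosphorylation 67 fell and 2 rose, with a median of -0.67. All day 14 libraries were below all day 0 libraries for 36 of these 78 genes, and for 23.0% of all tested genes. Sdha, of succinate dehydrogenase, had 148, 136, 138 and 178 CPM at day 14, against 328, 283, 394 and 472 CPM at day 0. All 7 mitochondrially encoded genes tested fell, with a median of -1.80, and together held 1.47% to 2.21% of counts at day 14 and 4.70% to 7.57% at day 0. Fatty acid oxidation genes had 25 of 33 members down and 3 up, with Acadm at -1.43. Glycolysis genes had 16 of 30 members down and 7 up. The muscle aldolase Aldoa fell by 2.24 and the insulin-responsive glucose transporter Slc2a4 by 2.82, while the enolase Eno1 and the phosphofructokinase Pfkl rose by 1.31 and 1.11. Muscle fibres are rich in many of these enzymes, and their marker share was lower at day 14. With the score of muscle markers as a covariate 54 oxidative phosphorylation genes fell and 2 rose. Because the muscle share differs between the groups, this setting cannot separate muscle content from day. The part of muscle in these falls was not tested. FoxO targets, a class held down by insulin and IGF signalling, had 20 of 28 members down and 3 up, with Bcl6 at -2.11 and Txnip at -1.62.

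Of 51 Hox and limb patterning factors 29 fell and 4 rose, with a median of -0.56. Hoxa13, a factor of the distal limb, had 3.28, 2.24, 3.31 and 2.14 CPM at day 14, against 9.14, 9.06, 9.77 and 10.4 CPM at day 0. Tbx4, a hindlimb factor, averaged 11.2 ± 2.55 CPM at day 14 and 35.2 ± 5.64 CPM at day 0. Hoxa13 and Tbx4 were lower in every day 14 library. Of the Hox and limb patterning factors 2 rose without day 14 replicate 2. Of 62 mesenchymal and developmental factors 22 rose and 22 fell, with Runx1 at 1.24 and Sox4 at 2.19, and Prrx1 at -0.89 and Msx1 at -1.37. Of 20 clock genes 7 fell and 2 rose. Nr1d1, a repressor of the clock, had 69.2, 70.9, 101 and 47.3 CPM at day 14 and 264 to 339 CPM at day 0. The labels give no hour of sampling.

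Skeletal muscle fibre markers had 23 of 42 members down and 4 up, with a median of -2.02. The fast myosin Myh4 had 215, 31.4, 39.3 and 258 CPM at day 14, against 12871, 7838, 16894 and 14668 CPM at day 0. Replicates 1 and 4, with the larger muscle shares of the day 14 group, were also the higher of that group here. The markers that rose were the slow fibre genes Tnni1, Tnnc1, Tnnt1 and Myh7, while Myl3, a light chain of slow fibre myosin, fell. Tnni1, slow troponin I, had 52.7, 9.41, 16.4 and 29.5 CPM at day 14, against 0.336, 0.374, 0.541 and 0.554 CPM at day 0, and Tnnc1, Myh7 and Tnnt1 rose by 5.30, 3.75 and 2.88. Myh7 did not pass without day 14 replicates 1 and 4 (edgeR adjusted p = 0.0656). Developing and regenerating muscle markers had 13 of 25 members up and 2 down, with a median of 1.14. Tnnt2, a troponin of developing muscle, rose by 5.76, Mymk, which fuses myoblasts, by 4.87 and Chrna1, a subunit of the acetylcholine receptor, by 4.11. Without day 14 replicates 1 and 4, 30 muscle fibre markers fell and 3 rose, and 10 regenerating markers rose and 6 fell. With either day 14 replicate 2 or day 14 replicate 3 left out, 15 muscle fibre markers fell.

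Adipocyte markers had 29 of 31 members down and 0 up, with a median of -2.71. Scd1, which desaturates fatty acids, had 225, 223, 272 and 401 CPM at day 14, against 3193, 1970.4, 2565 and 1920.4 CPM at day 0. Schwann cell and myelin markers had 16 of 25 members down and 1 up, with Sox10, a transcription factor of these cells, at -2.17. Of 33 endothelial markers 11 fell (33.3%) and 5 rose (15.2%), beside 26.2% and 28.0% over all tested genes. Of these markers 14 had intervals inside 1.5-fold. Apln, of sprouting tips, rose by 2.11 and Kdr, a VEGF receptor, fell by 0.92. Of the endothelial markers 3 rose without day 14 replicate 3, day 0 replicate 1 or day 0 replicate 4. Of 24 pericyte and smooth muscle markers 10 rose and 4 fell. Keratinocyte markers had 14 of 23 members down and 0 up, and held 0.00391% to 0.00587% of counts at day 14 and 0.0104% to 0.0305% at day 0. Krt2, a keratin of the epidermis, had 1 count at day 14 and 2298 at day 0, with 1.62, 8.08, 1.85 and 39.9 CPM in the day 0 libraries. Without day 14 replicates 1 and 4, 8 keratinocyte markers fell, and 8 or 9 fell without any 1 of day 14 replicates 1, 2 and 3 and day 0 replicate 4.

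Of 39 macrophage markers 23 rose and 7 fell, with a median of 0.91. Trem2, a receptor of lipid-handling macrophages, had 73.2, 75.9, 93.02 and 92.4 CPM at day 14 and 19.2 to 23.5 CPM at day 0. Cd68, a lysosomal protein of macrophages, rose by 1.41 and Ms4a7 by 2.34. Retnla, a marker of alternatively activated macrophages, averaged 3.20 ± 3.43 CPM at day 14 and 105 ± 21.8 CPM at day 0. Timd4, of resident macrophages, fell by 4.70. Csf1, the growth factor of macrophages, had 85.8, 92.8, 95.5 and 113 CPM at day 14, against 262, 308, 266 and 248 CPM at day 0, with no overlap. Neutrophil markers had 11 of 15 members up and 2 down, Lcn2 and Il1r2. Levels were low, such as 7.73 CPM at day 14 and 0.527 CPM at day 0 for S100a9. Together the neutrophil markers held 0.00775% of counts at day 14 and 0.00974% at day 0, a difference that did not pass (two-sided exact permutation p = 0.4). T and NK cell markers had 10 of 32 members up (31.3%) and 3 down (9.38%), and mast cell markers fell in 9 of 16 and rose in 2. Over all tested genes 28.0% rose and 26.2% fell, so the share of T and NK cell markers that rose was near that of all genes. Of 18 B and plasma cell markers 5 fell (27.8%, also near the share over all tested genes) and 2 rose (11.1%). Ighm, the IgM heavy chain, averaged 17.7 ± 5.79 CPM at day 14 and 135 ± 32.4 CPM at day 0. Chemokines and receptors had 18 of 48 members up and 7 down, with the receptor Cxcr4 at 2.74. Interleukins and cytokines had 21 of 40 members up and 10 down, with the IL-4 receptor Il4ra at 2.34. Of 39 interferon-responsive genes 13 rose (33.3%) and 2 fell (5.13%), and 6 rose and 0 fell without day 14 replicates 1 and 4. Leaving out any 1 library other than day 14 replicate 1 or day 0 replicate 1 gave 6 to 8 interferon-responsive genes that rose, and none fell without day 14 replicate 1.

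**Figure D4:**
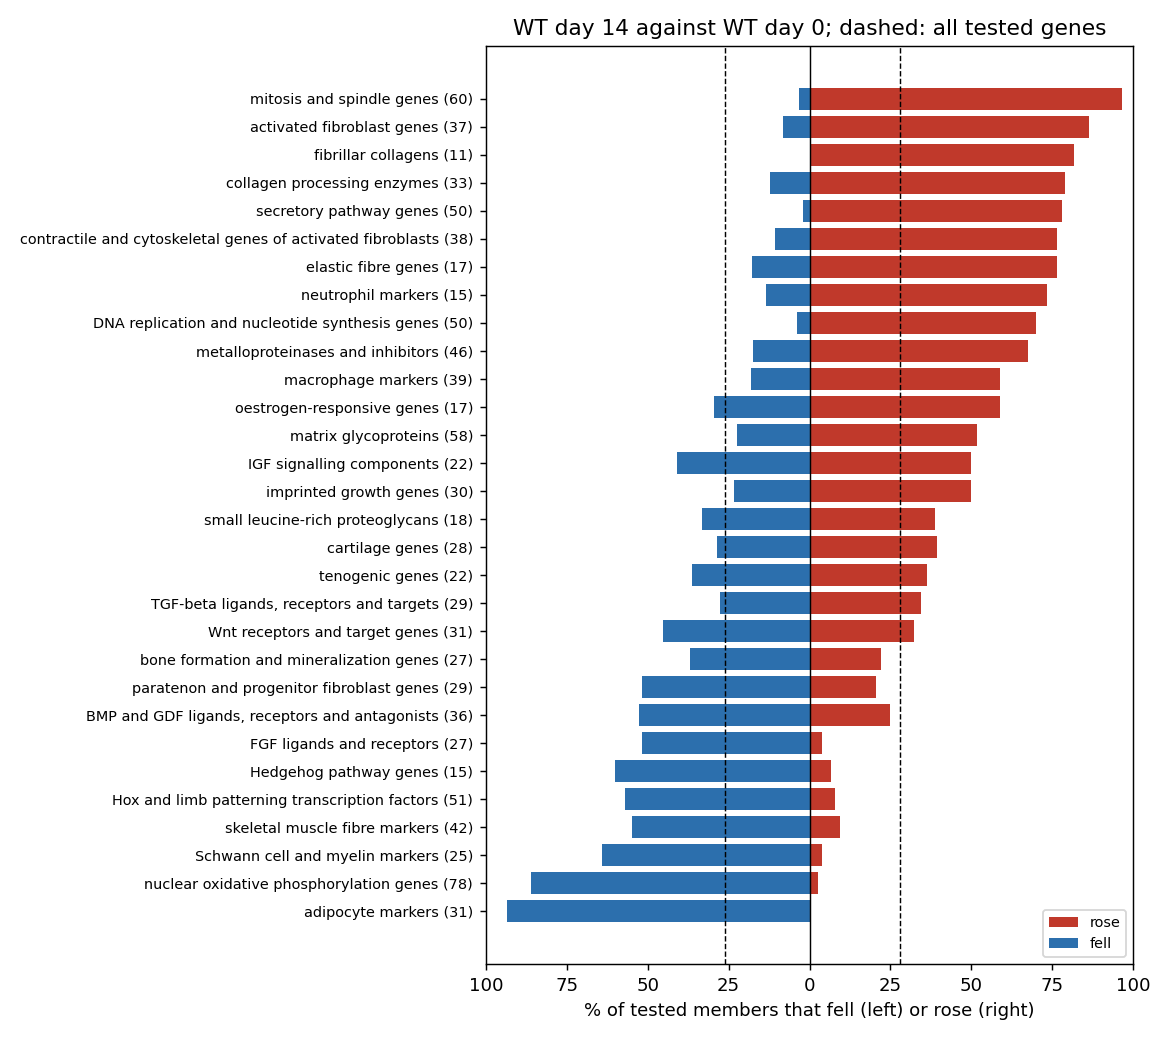
Share of the tested members of 30 gene lists that rose (red, right of 0) or fell (blue, left of 0) at WT day 14 against WT day 0. The x axis is percent of tested members, the number tested stands beside each list name, and the dashed lines mark 28.0% and 26.2%, the shares over all tested genes. Mitosis genes lie almost wholly on the right, and adipocyte and oxidative phosphorylation genes on the left.

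For 5876 genes the 95% interval of the change lay inside 1.5-fold either way, and 1706 of these passed the test. Another 4480 genes did not pass and had intervals that reach beyond 1.5-fold, so this spread and depth do not bound their changes. The narrowest intervals among genes of at least 50 CPM included that of Ddx42, an RNA helicase, at 84.4 ± 1.45 CPM at day 14 and 82.1 ± 3.21 CPM at day 0. They included Smad4, the transducer shared by TGF-beta and BMP signals, at 79.04 ± 2.41 CPM at day 14 and 76.6 ± 0.950 CPM at day 0.

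WT day 7 shares the stimulus and tamoxifen with day 14. Its change from day 0 uses the same day 0 libraries, so day 7 values are set beside the others and day 14 was tested against day 7 directly. Against day 0, 12133 genes differed at day 7, 64.1% of those tested. Between day 14 and day 7 5745 genes differed, 30.4% of those tested. Mitosis genes were lower at day 14 than at day 7 in 59 of 60 cases and higher in 0, with a median of -1.33. Cdk1 averaged 2.32, 49.9 and 20.99 CPM at day 0, day 7 and day 14. Macrophage markers were lower than at day 7 in 30 of 39 cases and higher in 2, and neutrophil markers lower in 11 of 15 and higher in 0. Tenogenic genes were higher than at day 7 in 18 of 22 cases and lower in 1. Their median change from day 0 was -1.05 at day 7 and 0.03 at day 14. Across day 0, day 7 and day 14, Tnmd averaged 183, 214 and 1485 CPM, and Scx 38.4, 50.5 and 114 CPM. In the same order Chad averaged 8633, 217 and 1085 CPM, so that both later days stood below day 0. Wnt16 averaged 0.367, 1.83 and 16.3 CPM and Col2a1 2.53, 2.22 and 44.2 CPM. Small leucine-rich proteoglycans were higher than at day 7 in 14 of 18 cases and lower in 0, and muscle fibre markers higher in 37 of 42 and lower in 0. Gsn averaged 18351, 1138 and 1486 CPM, C7 1316, 44.3 and 31.7 CPM and Postn 139, 9481 and 9163 CPM. The difference between day 14 and day 7 did not pass for Gsn, C7 or Postn (edgeR adjusted p = 0.234, 0.578 and 0.890).

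**Figure D5:**
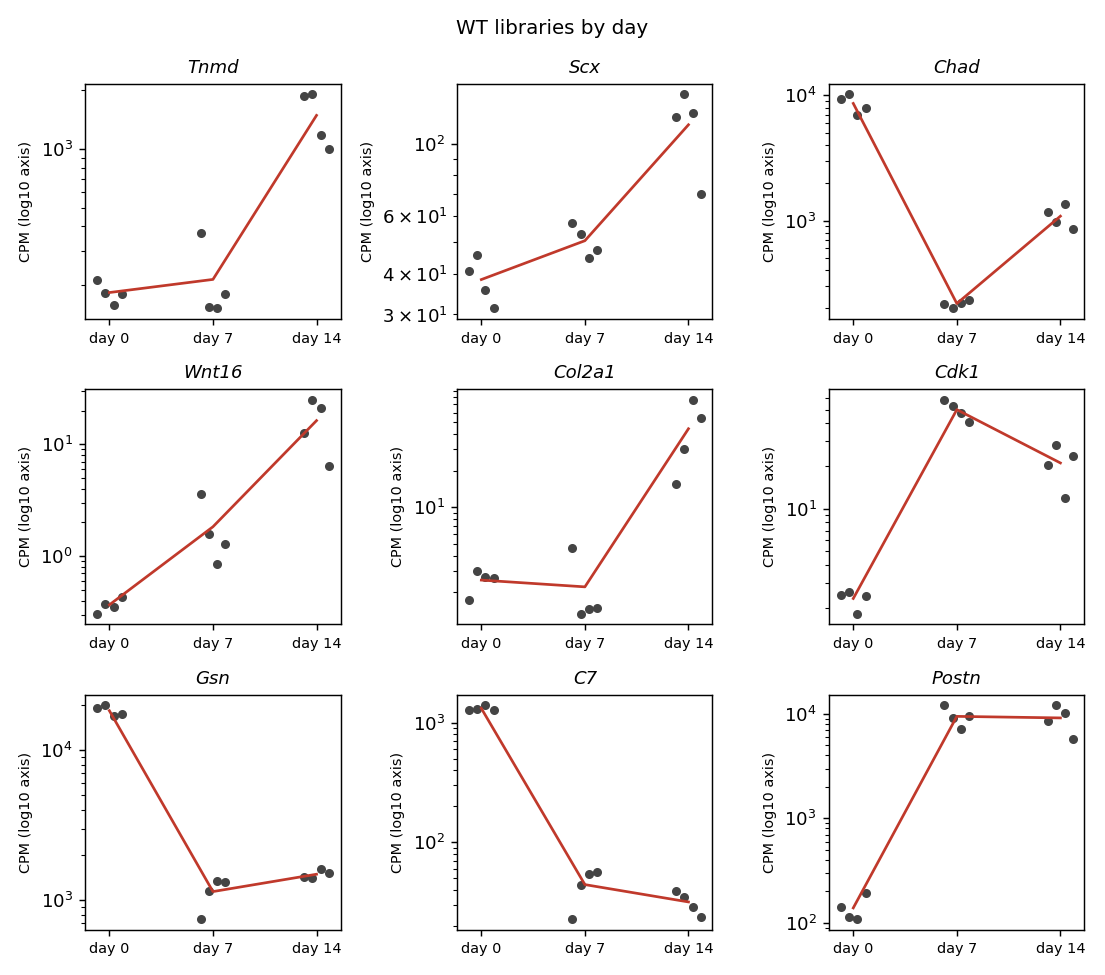
CPM of 9 genes in the WT libraries at day 0, day 7 and day 14, in time order on the x axis. The y axis is CPM on a log10 scale, points are libraries, 4 per day, and lines join the group means. Mean Tnmd, Wnt16 and Col2a1 were highest at day 14 and mean Cdk1 at day 7, while Gsn and C7 were far below day 0 on both later days.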

How the data were processed

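Tissue RNA of 20 plantaris tendon libraries was sequenced, and 8 were compared here. The authors deposited raw read counts per gene. The submitters' processing notes name STAR, FastQC, edgeR and mm10, and their versions, the counting tool and strand use are not stated in the labels. The authors' deposited table also holds log2 fold changes, p-values and false discovery rates. It lists 13266 genes, of which 8425 have a false discovery rate below 0.05, and 8244 of these were called here in the same direction.

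Counts were fitted with edgeR 4.0.16 (R 4.3.3) in all 20 libraries, which share 1 estimate of the spread: genes kept by filterByExpr, TMM scaling, 1 mean for each of 5 groups, robust quasi-likelihood tests and Benjamini-Hochberg adjustment. DESeq2 1.42.0 and limma 3.58.1 served as alternatives. The procedure was also run on simulated counts with a single fixed spread and few changed genes, a simpler setting than these data. That run does not check the error rate under the spread and the many changes seen here. Single values were compared by two-sided exact permutation tests, whose smallest p is 0.0286 and whose p-values were not adjusted. Counting intervals cover counting error only. No replicates were duplicates of each other (smallest chi-square per degree of freedom 15.4). Coordinates are those of GENCODE M21 (GRCm38).

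The members and the 73 gene lists were chosen with earlier results of these data known. Named genes are the 15 per direction with the largest change and the 10 with the largest CPM difference, among called genes without overlap and with 10 CPM or more in the higher group, up to 6 called members of a list per direction by p, up to 10 of at least 50 CPM with the narrowest intervals, and Igf1r, Scx and Tnmd. Cdc20, Cdc6, Gins3 and Top2a were named for their promoters, and Mkx, Thbs4 and Timp1 after their values were seen. Some genes that this rule names are not reported here.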

Additional observations from a re-analysis of the deposited data

Results flagged for a closer look

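A value was listed when the gap between the highest or lowest of 4 libraries and the next, divided by the range of the group, was above Dixon's critical value for 4 samples. Of 404 groups of 4 examined 16 were past that limit, and chance lists about 1 in 20. Within WT day 14, replicate 4 was high for Esr1 at 23.0 CPM and for Krt2 at 0.0252 CPM, where it held the single count of the group. The same library was low for Dpp4 at 13.9 CPM, Loxl4 at 18.2 CPM and Txnip at 255 CPM. Day 14 replicate 1 was high for Pcolce2 at 62.8 CPM and S100a4 at 84.5 CPM, and replicate 2 was low for Lamc3 at 8.93 CPM. Within WT day 0, replicate 2 was high for Ctsk at 181 CPM, Fn1 at 4027 CPM and Smad6 at 29.7 CPM. Day 0 replicate 3 was high for C7 at 1395 CPM and Prss35 at 0.333 CPM. Day 0 replicate 4 was high for Krt2 at 39.9 CPM and Tnnt1 at 5.95 CPM and low for Sfrp1 at 43.8 CPM.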

How the results depend on the processing

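Under 19 alternatives no count over all tested genes moved by more than 1.5 times. Besides 10268 genes, 8915 were called with the muscle score as a covariate, 9147 with the 8 libraries fitted alone, 10500 with DESeq2 and 10234 with limma-voom. Of the 10268 genes 8857 were also called with the 8 libraries alone. Leaving out 1 library at a time gave 9207 to 10594 genes, 4755 to 5426 that rose and 4452 to 5168 that fell. The median change of all genes stayed between 0.0028 and 0.042. Every scaling used centres most genes near 0, so this is no separate check. Of 146 counts of list members 26 moved by more than 1.5 times without 1 library, 15 of them counts under 4, and the others are given beside their lists. Of 196 genes in the text that were followed under the alternatives 190 kept their direction and their side of the threshold. Most were named for their change or p in the main fit, so this does not stand for all called genes. Cdc25b did not pass without day 14 replicates 1 and 4 (edgeR adjusted p = 0.0848), nor Myh7 with limma-voom (adjusted p = 0.0888). Thbs4 passed with upper-quartile scaling, DESeq2 and limma-voom. The replicate block gave 10414 genes, 5314 up and 5100 down. Replicate numbers were not shown to pair the libraries: correlations of same-numbered libraries were 0.046, 0.231, -0.022 and 0.188. The best correlations with another number were 0.040, 0.082, 0.154 and 0.102. The same number was thus the better match for replicates 1, 2 and 4, and another number for replicate 3. These libraries bound changes to 1.5-fold for 5876 genes, and for 4480 that did not pass they do not.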

Other observations

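The lists that follow are set against 28.0% of all tested genes that rose and 26.2% that fell at day 14 against day 0. Of 28 prostaglandin and lipid mediator genes 13 fell and 7 rose, with Ptgs2, the inducible cyclooxygenase, at 2.51 and Hpgd, which degrades prostaglandins, at -2.13. Of 22 PDGF and VEGF ligands and receptors 10 fell and 4 rose, and Vegfb fell by 1.39. EGF family genes had 9 of 16 members down and 4 up, with the receptor Erbb4 at -3.99. YAP and TEAD targets had 11 of 25 members up and 10 down. Integrins and other matrix receptors had 10 of 31 members up (32.3%) and 7 down (22.6%), near the shares over all tested genes, with Cd44, a hyaluronan receptor, at 1.48. Among 15 activin, myostatin and follistatin genes 4 rose and 6 fell, with Fstl1, a secreted follistatin relative, at 2.27. Notch pathway genes had 6 of 19 members down and 3 up. Mechanosensitive channel and calcium genes had 10 of 30 members up (33.3%) and 8 down (26.7%), also near those shares.

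Antioxidant and metallothionein genes had 15 of 33 members down and 9 up, with Gpx8 at 1.69 and Gstm1, a glutathione transferase, at -2.21. Glucocorticoid-responsive genes had 10 of 22 members down and 3 up. Cholesterol synthesis genes had 5 of 24 members up and 5 down. Immediate early genes had 6 of 28 members up and 4 down. MHC class II and dendritic cell genes had 8 of 24 members down and 5 up, and among 9 erythroid markers 1 fell and 1 rose. Without day 14 replicate 1, 7 PDGF and VEGF genes rose, and without day 14 replicate 3, 3 cholesterol synthesis genes fell. Without day 14 replicate 4, day 0 replicate 1 or day 0 replicate 2, 2 immediate early genes fell, and without day 0 replicate 3 or day 0 replicate 4, 3 MHC class II and dendritic cell genes rose.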
